A study of Mus musculus with 10 samples.

Results

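Plasma cell identity genes were followed here through osteocyte RNA-seq libraries of mice with and without myeloma. The set holds 10 genes, matched by symbol among the 22548 genes of the count table, and every one was found once: the transcription factors Prdm1, Xbp1 and Irf4, the chaperone Mzb1, the TNF receptor family members Tnfrsf17 and Tnfrsf13b, and the surface proteins Sdc1, Slamf7, Cd38 and Fcrl5. Members were found by symbol alone, without a threshold on any value. All 10 genes passed the filter on low counts, as did 16186 genes in all.

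The study asked how osteocytes, the cells embedded in bone matrix, change when myeloma grows in the bone. Male C57BL/6 mice aged 8 weeks formed 2 groups of 5. MM mice carried Vk12598 cells, a murine myeloma line from the Vk*MYC model, injected into the femur, and their bones were taken in the sixth week. No MM mice received no myeloma cells and carried no other allele or agent that the labels name. The methods of the study describe control mice as given PBS in the same volume. After marrow removal, bone pieces of each mouse were digested in turn with collagenase and EDTA, the released cells were collected as osteocytes with no sort described, and 1 stranded total RNA library was made per mouse. Libraries are named here by group and mouse number, which runs from 1 to 5 in No MM and from 6 to 10 in MM.

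Plasma cells are the antibody-secreting end stage of the B lineage, and myeloma is their malignancy. Blimp-1 (Prdm1) shuts down the B cell programme, Irf4 drives and maintains the plasma cell state, and Xbp1 expands the secretory pathway that immunoglobulin production needs. Receptors for the survival factors APRIL and BAFF (Tnfrsf17 and Tnfrsf13b) and surface proteins such as syndecan-1 (Sdc1) mark the mature cell and serve in its detection or as therapy targets.

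Between 31099174 and 39466332 reads were counted per library. Levels are given as CPM, counts per 1000000 counts of a library after edgeR's TMM scaling, and 3 counts correspond to between 0.0760 and 0.0965 CPM before that scaling. The share of counts on 234 immunoglobulin genes stood at 26.8% for No MM 3 and 29.3% for No MM 4, with 95% Wilson intervals of 26.82% to 26.85% and 29.25% to 29.28%. Such intervals cover counting error only, since reads are not independent molecules. In the other 8 libraries it lay between 0.644% and 3.98%. Within kappa variable genes, Igkv4-91 took 99.6% and 99.8% of counts in the libraries labelled No MM 3 and 4, and Ighv1-15 took 99.1% and 99.3% of the heavy variable counts. The same pair of genes led in MM 9 (28.2% and 33.6%) and MM 10 (47.7% and 44.1%), while other variable genes led in the remaining 6 libraries. Of these, No MM 1 was led by Igkv12-89 (52.7%) and Ighv10-1 (63.7%), and No MM 2 by Igkv9-123 (73.6%) and Ighv4-1 (80.2%). In No MM 5 and MM 6, 7 and 8 the leading shares were lower, from 11.8% to 29.0% (kappa) and from 13.9% to 35.2% (heavy). The leading heavy constant gene differed: Ighg2b in the libraries labelled No MM 3 and 4 (97.8% and 98.3%), and Ighm in MM 9 (59.3%) and MM 10 (48.7%). Ighg2b also led in No MM 1 (52.8%), Igha led in MM 7 (38.2%), and Ighm led in No MM 2, No MM 5, MM 6 and MM 8. So the libraries that stood furthest apart were labelled as controls. Whether these libraries match the mice on their labels was not tested, and the direction of each MM over No MM difference below holds for the labels as given. The tests between groups, the order of levels and the nearest profiles are given with and without this pair.

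The immunoglobulin share by itself did not separate the groups. Its median was 3.98% in No MM and 1.42% in MM, and the MM libraries lay between 1.06% and 1.99%. The mean difference was -1.97 on the log2 scale, MM minus No MM (exact permutation test over all assignments of the mice, two-sided, p = 0.119, smallest possible p = 0.00794). Without the libraries labelled No MM 3 and 4 it was -0.42 (exact permutation test, p = 0.536, smallest possible p = 0.0357). Leaving out No MM 5, the library with the lowest share, gave -2.75 (exact permutation test, p = 0.0159).

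The members were also compared in their promoters, the 250 bases before and 50 bases after the start site in RefSeq (GRCm38.p6), where 9 of the 10 members had an entry. Shown are Irf4, the member with the largest fold in the libraries labelled No MM 3 and 4 over the others, and Xbp1 and Tnfrsf17, whose levels in those libraries were also raised. Capitals mark a searched motif where one was found. Irf4 is chr13:30748983-30749282, Xbp1 is chr11:5520391-5520690 and Tnfrsf17 is chr16:11313559-11313858, all on the plus strand.
Irf4: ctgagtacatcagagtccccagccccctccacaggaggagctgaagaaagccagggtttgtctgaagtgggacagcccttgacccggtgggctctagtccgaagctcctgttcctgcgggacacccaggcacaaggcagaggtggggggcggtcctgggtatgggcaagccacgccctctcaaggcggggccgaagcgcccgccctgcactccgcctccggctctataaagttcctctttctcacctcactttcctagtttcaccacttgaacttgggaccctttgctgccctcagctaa
Xbp1: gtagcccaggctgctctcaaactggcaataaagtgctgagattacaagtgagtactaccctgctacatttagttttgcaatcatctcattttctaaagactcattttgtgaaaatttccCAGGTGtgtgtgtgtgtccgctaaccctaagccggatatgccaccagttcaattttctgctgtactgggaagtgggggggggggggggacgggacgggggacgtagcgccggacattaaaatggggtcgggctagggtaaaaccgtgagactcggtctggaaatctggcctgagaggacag
Tnfrsf17: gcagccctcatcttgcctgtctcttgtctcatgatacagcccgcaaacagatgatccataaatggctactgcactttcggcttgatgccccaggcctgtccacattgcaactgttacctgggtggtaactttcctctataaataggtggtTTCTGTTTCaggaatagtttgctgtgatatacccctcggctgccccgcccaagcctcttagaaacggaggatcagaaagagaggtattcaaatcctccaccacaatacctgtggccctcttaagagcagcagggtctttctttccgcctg

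On either strand, the core GAAANNGAA that IRF factors and Blimp-1 can bind was in 1 of the 9 promoters (Tnfrsf17, first base at -100, read above on the opposite strand as TTCTGTTTC), against 8.56% of 32851 RefSeq promoters of the same length. The XBP1 type core TGACGTG was in 0 of 9, against 2.01%. The E-box CAGGTG was in 2 of 9, Prdm1 at -87 and Xbp1 at -131, against 20.2%. These are matches of letters and not sites of binding.

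Prdm1, Xbp1 and Irf4 were all highest in the libraries labelled No MM 3 and 4, and lower in the other 8. From lowest to highest of those 8 they varied by 1.97, 1.80 and 2.41 times. Irf4 CPM in No MM 1 to 5 was 21.6, 37.1, 1007, 760.5 and 22.1, and in MM 6 to 10 it was 16.9, 23.3, 23.2, 40.7 and 40.1. Its values in the libraries labelled No MM 3 and 4 were 24.8 and 18.7 times the highest of the other 8, so Irf4 had the largest such ratio of the 10 members. The groups overlapped, since the other No MM mice lay within the MM range. The fitted log2 fold change, MM over No MM, was -3.68 ± 1.11 (SE, edgeR quasi-likelihood test, Benjamini-Hochberg adjusted p = 0.315), and 0.08 ± 0.331 without the libraries labelled No MM 3 and 4 (adjusted p = 0.938).

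Xbp1 CPM was 356, 325, 1929, 1932 and 199 in No MM 1 to 5, and 209, 242, 243, 198 and 203 in MM 6 to 10. The libraries labelled No MM 3 and 4 were 5.42 and 5.43 times the level of the next library, No MM 1, and No MM 5 lay among the MM values. The log2 fold change was -2.11 ± 0.623 (edgeR, adjusted p = 0.315) and -0.44 ± 0.215 without those libraries (adjusted p = 0.643).

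Prdm1 was at 12.2, 14.8, 142.8, 112.5 and 19.7 CPM in No MM 1 to 5 and at 22.3, 17.6, 16.5, 11.3 and 15.2 CPM in MM 6 to 10. Its highest MM library exceeded 3 of the 5 No MM libraries, and the fold over the highest of the other 8 was 6.40 and 5.04 in the libraries labelled No MM 3 and 4. The log2 fold change of -1.86 ± 0.677 (edgeR, adjusted p = 0.315) became 0.07 ± 0.245 without them (adjusted p = 0.916).

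**Figure D1:**
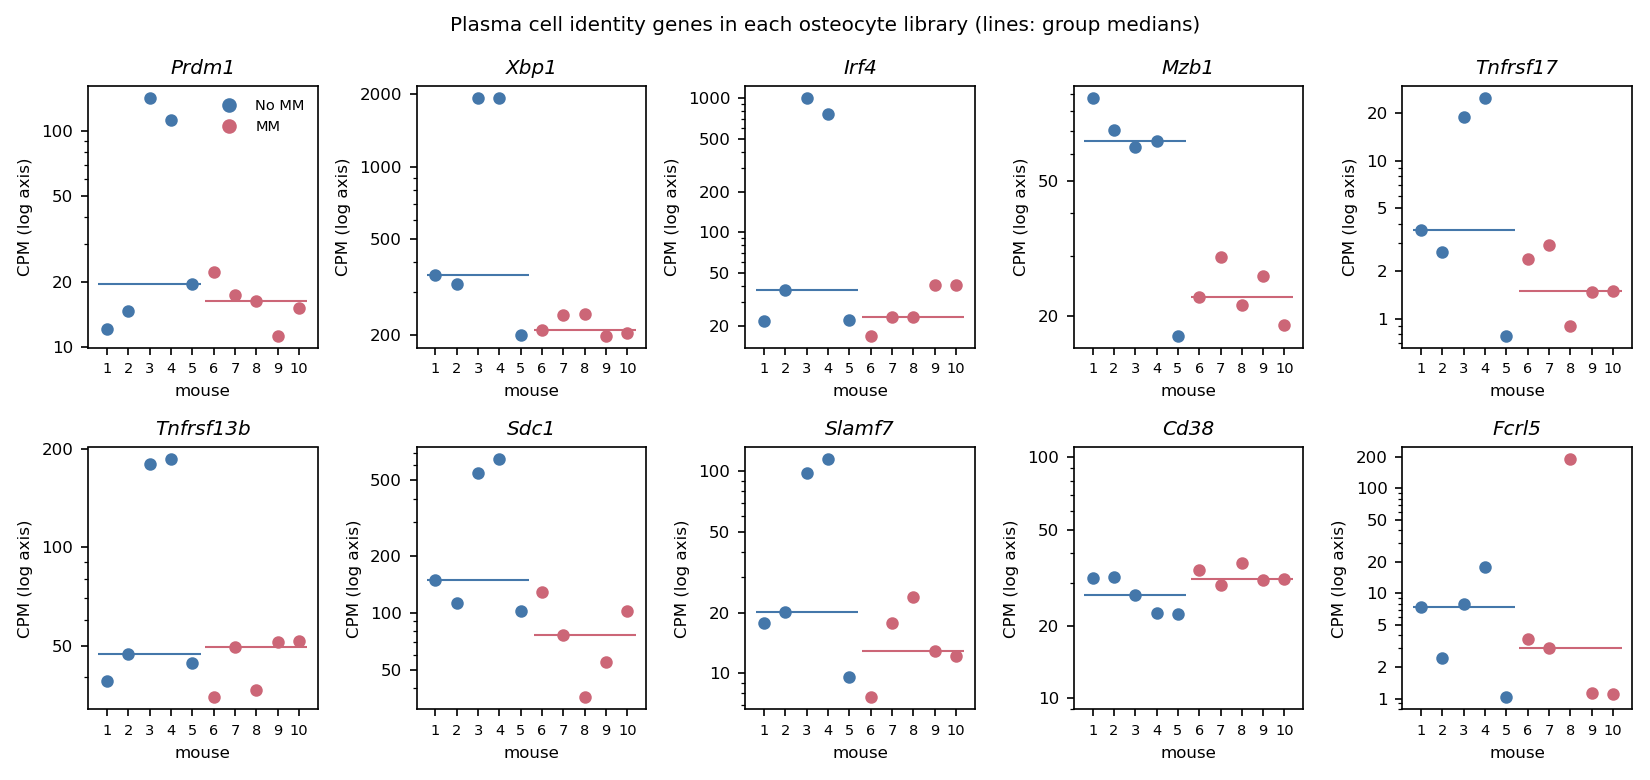
CPM on log axes for each member in No MM mice 1 to 5 and MM mice 6 to 10, with 1 point per library and a line at each group median. No MM 3 and No MM 4 sit above every other library for 7 of the 10 genes, Mzb1 is high in No MM 1 to 4, Cd38 is nearly level, and Fcrl5 peaks at 189 in MM 8.

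Mzb1, an endoplasmic reticulum chaperone that assists antibody assembly, followed another order. It was at 87.6, 70.4, 62.9, 65.5 and 17.4 CPM in No MM 1 to 5 and at 22.7, 29.8, 21.5, 26.1 and 18.8 CPM in MM 6 to 10. No MM 1 to 4 were all above all 5 MM libraries, and No MM 5 was the lowest of the 10, so the groups overlapped through that single library. Here the libraries labelled No MM 3 and 4 were below No MM 1 and No MM 2. Mzb1 had a log2 fold change of -1.35 ± 0.346 (edgeR, unadjusted p = 0.00242, adjusted p = 0.315) and of -1.33 ± 0.419 without the libraries labelled No MM 3 and 4 (unadjusted p = 0.0111, adjusted p = 0.643). The span of Mzb1 overlaps Spata24 on the same strand, so reads in the shared part could have been assigned to either gene.

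The APRIL and BAFF receptors repeated the order of the transcription factors. Tnfrsf17, which encodes BCMA, was at 3.66, 2.65, 19.0, 24.9 and 0.784 CPM in No MM 1 to 5 and at 2.41, 2.92, 0.898, 1.49 and 1.51 CPM in MM 6 to 10. The libraries labelled No MM 3 and 4 stood 5.19 and 6.80 times above the highest of the other 8, which was No MM 1. Its log2 fold change was -2.46 ± 0.826 (edgeR, adjusted p = 0.315), and -0.38 ± 0.538 without them (adjusted p = 0.799).

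Tnfrsf13b, which encodes TACI, had 38.9, 47.1, 179.5, 186.1 and 44.2 CPM in No MM 1 to 5 and 34.7, 49.5, 36.5, 51.3 and 51.7 CPM in MM 6 to 10. Outside the libraries labelled No MM 3 and 4 it varied by 1.49 times from lowest to highest, the narrowest span of the 10 members. The log2 fold change was -1.15 ± 0.468 (edgeR, adjusted p = 0.328) and 0.03 ± 0.181 without them (adjusted p = 0.964). A processed pseudogene, Gm12269, lies within its span on the opposite strand, and the strand setting used for counting is not given in the sources used here.

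Ligands of these receptors were low. Tnfsf13 (APRIL) lay between 0.799 and 2.01 CPM in the other 8 libraries and was at 0.711 and 1.13 CPM in the libraries labelled No MM 3 and 4. Tnfsf13b (BAFF) was below the other 8 libraries in both, at 2.20 and 2.58 CPM against 3.60 to 9.38 CPM. Tnfrsf13c, the BAFF receptor of B cells, was above them in both, at 35.4 and 28.9 CPM against 5.37 to 15.6 CPM. Of these 3 genes, 0 passed the test between groups, also without the libraries labelled No MM 3 and 4.

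Among the surface proteins, Sdc1 and Slamf7 followed the transcription factors and Cd38 and Fcrl5 did not. Sdc1, which encodes syndecan-1 and is also made by epithelial and other cells, was at 149.5, 112, 550.0, 645.6 and 102.5 CPM in No MM 1 to 5 and at 127.9, 75.9, 35.7, 54.9 and 102.5 CPM in MM 6 to 10. Its lowest level was in MM 8, and No MM 1, 2 and 5 lay in the upper part of the MM range or above it. Its log2 fold change was -1.97 ± 0.593 (edgeR, adjusted p = 0.315) and -0.63 ± 0.375 without the libraries labelled No MM 3 and 4 (adjusted p = 0.643).

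Slamf7, a receptor of the SLAM family and an antibody target in myeloma, had 17.7, 20.2, 97.8, 114.6 and 9.56 CPM in No MM 1 to 5 and 7.63, 17.7, 23.9, 12.9 and 12.2 CPM in MM 6 to 10. Only the libraries labelled No MM 3 and 4 were above 23.9 CPM, the MM 8 value. Between groups the log2 fold change was -1.81 ± 0.663 (edgeR, adjusted p = 0.315) and -0.12 ± 0.371 without them (adjusted p = 0.914). An antisense gene, Gm37787, overlaps Slamf7.

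Cd38, an ectoenzyme that consumes NAD and is also found on other blood cells, was the most even member by its spread over all 10 libraries. It lay at 31.5, 31.8, 26.9, 22.6 and 22.4 CPM in No MM 1 to 5 and at 34.0, 29.4, 36.3, 31.1 and 31.3 CPM in MM 6 to 10. The libraries labelled No MM 3 and 4 were among the 3 lowest. Its log2 fold change of 0.26 ± 0.154 (edgeR, adjusted p = 0.45) was 0.16 ± 0.165 without them (adjusted p = 0.728). Antisense and intronic genes, Gm16015 and Gm16014, overlap Cd38.

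Fcrl5, an Fc receptor-like protein of B and plasma cells, had its peak in another library. It was at 7.47, 2.42, 8.01, 17.9 and 1.03 CPM in No MM 1 to 5 and at 3.67, 3.05, 189, 1.13 and 1.09 CPM in MM 6 to 10. MM 8 held 8000 of its reads, and the other MM libraries lay between 1.09 and 3.67 CPM. The log2 fold change of 2.43 ± 1.46 (edgeR, adjusted p = 0.457) rests on that library: without MM 8 it was -1.72 (adjusted p = 0.470), and without the libraries labelled No MM 3 and 4 it was 3.41 ± 1.96 (adjusted p = 0.643).

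**Figure D2:**
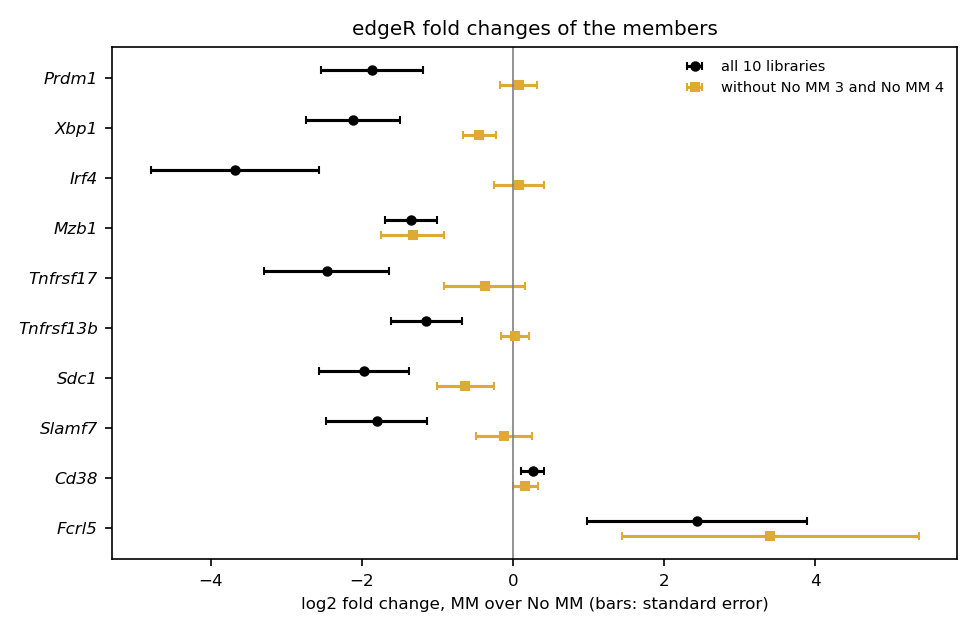
Log2 fold change of each member, MM over No MM, by edgeR, with bars for the standard error, over all 10 libraries (circles) and without No MM 3 and No MM 4 (squares). Without them Irf4 moves from -3.68 to 0.08, while Mzb1 stays near -1.3.

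Over the 10 members, 0 passed the adjusted threshold of 0.05 in edgeR, as did 0% of the 16186 genes tested. At an unadjusted p under 0.05, 8 of 10 were lower in MM (10.3% of all genes tested) and 0 of 10 were higher (3.81%). Cd38 and Fcrl5 were the members that did not reach it. By an exact permutation test on log2 CPM, unadjusted p was under 0.05 only for Sdc1 (0.0317), Xbp1 (0.0397) and Mzb1 (0.0476). By that test it was 0.175 for Tnfrsf17, 0.183 for Slamf7, 0.262 for Tnfrsf13b, 0.270 for Irf4 and 0.286 for Prdm1. No share over all genes was computed for the exact test. The median log2 fold change of the members was -1.84, against -0.03 over all tested genes. Without the libraries labelled No MM 3 and 4, 1 of 10 was lower at an unadjusted p under 0.05, namely Mzb1 (3.37% of 16600 genes), 0 were higher (2.51%), 0 passed after adjustment (0%), and the median was -0.04 against -0.02. The unadjusted edgeR count, not split by direction, was 5 without No MM 3 alone and 6 without No MM 4 alone. For those fits no share over all genes was computed, so these counts have no background beside them. With DESeq2 on all 10 libraries, 3 members passed, all lower in MM (0.998% of genes with an adjusted p were called lower): Irf4 (adjusted p = 0.0207), Mzb1 (adjusted p = 0.0410) and Xbp1 (adjusted p = 0.0463). Without the libraries labelled No MM 3 and 4, DESeq2 called 0 members (0.00891% of genes were called lower), and the smallest adjusted p was 0.773. There 1 member had an unadjusted p under 0.05, and the share over all genes was not computed. DESeq2 gave no adjusted p for Fcrl5, with or without that pair, so Fcrl5 could not be called. Groups did not overlap for 0 of the 10 members and for 1.41% of all genes tested, and without that pair for 0 of 10 and for 3.89%. In bulk libraries, fewer plasma cells and less RNA per plasma cell cannot be told apart.

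Both libraries labelled No MM 3 and 4 were above all other 8 for 7 of 10 members, a pattern that 24% of all tested genes shared, and below them for 0 of 10 (20.7% of all). The same count of 7 above was found with CPM not scaled by TMM and with CPM relative to counts outside immunoglobulin genes. Without TMM, 1 member, Cd38, was below the other 8 in both. The folds differed between members: they ran from 3.47 and 3.60 for Tnfrsf13b through 3.68 and 4.32 for Sdc1, and 4.10 and 4.80 for Slamf7, up to the Irf4 values given above. The immunoglobulin share was raised 6.75 and 7.36 times over the highest of the other 8. By the ratio of the lower of the pair to the median of the other 8, Irf4 ranked 56 of 16186 genes, Tnfrsf17 206, Xbp1 238 and Prdm1 287, and Cd38 ranked 10201.

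Set against immunoglobulin counts, most genes were low in these libraries, since their immunoglobulin counts are the denominator. As counts per 1000000 immunoglobulin counts, 95.5% of all genes tested were lower in both libraries labelled No MM 3 and 4 than in any other library, as were 8 of 10 members, and 0.124% of all genes and 0 of 10 members were higher in both. Xbp1 was at 5637 and 4763 on that scale, against 8345 to 34410 elsewhere, and Mzb1 was at 184 and 162 against 1495 to 3018. The exceptions were Irf4, at 2943 and 1874 within the range of 684 to 3828, and Prdm1, at 417 and 277 against 380 to 3412.

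Within the other 8 libraries, Mzb1 was the member that followed the immunoglobulin share most closely. Whether genes outside the members followed the share as closely was not tested. Its log2 CPM rose with the log2 share at Pearson r = 0.863 (exact permutation p = 0.00422, Benjamini-Hochberg adjusted over 10 members 0.0422) and Spearman rho = 0.905 (exact permutation p = 0.00456, adjusted 0.0456, n = 8). Without No MM 2 and No MM 5, the libraries farthest from the median share, r was 0.831 (exact permutation p = 0.0306, n = 6). The adjusted call was lost on leaving out No MM 1, 2 or 5 or MM 7, 8 or 9 (exact permutation, adjusted p from 0.0556 to 0.198), which also lowers the number of possible pairings. In MM alone, by rising share, Mzb1 was at 21.5 (MM 8), 22.7 (MM 6), 18.8 (MM 10), 26.1 (MM 9) and 29.8 CPM (MM 7). In the remaining No MM libraries the order by share was No MM 5, 1 and 2, with 17.4, 87.6 and 70.4 CPM. Correlations were computed over at least 6 libraries, so none is given within a group. The permutations exchanged libraries across both groups, and No MM 2 and No MM 1 had the highest shares of the 8. For all members, a relation to the share and a difference between groups were therefore not separated by these correlations. The libraries labelled No MM 3 and 4 were left out because they form a cluster apart: their share was 6.75 and 7.36 times the highest of the other 8, yet their Mzb1 was 0.717 and 0.748 times the highest of the other 8.

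The other members were less closely tied to the share in these 8 libraries. Tnfrsf17 had r = 0.782 (exact permutation p = 0.0205, adjusted 0.102, n = 8) and rho = 0.833 (adjusted 0.0769), and Xbp1 had r = 0.764 (exact permutation p = 0.0328, adjusted 0.109, n = 8) and rho = 0.548 (adjusted 0.427). Without No MM 2 and No MM 5 these fell to 0.718 (exact permutation p = 0.125, n = 6) and 0.647 (exact permutation p = 0.192, n = 6). Irf4, first by its fold in the libraries labelled No MM 3 and 4, had r = 0.408 (rho = 0.286, exact permutation adjusted p = 0.515, n = 8). Prdm1 had r = -0.587 (rho = -0.619, exact permutation adjusted p = 0.308, n = 8). The remaining 5 members had r between -0.07 (Fcrl5) and 0.553 (Slamf7), none of which passed the adjusted threshold.

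**Figure D3:**
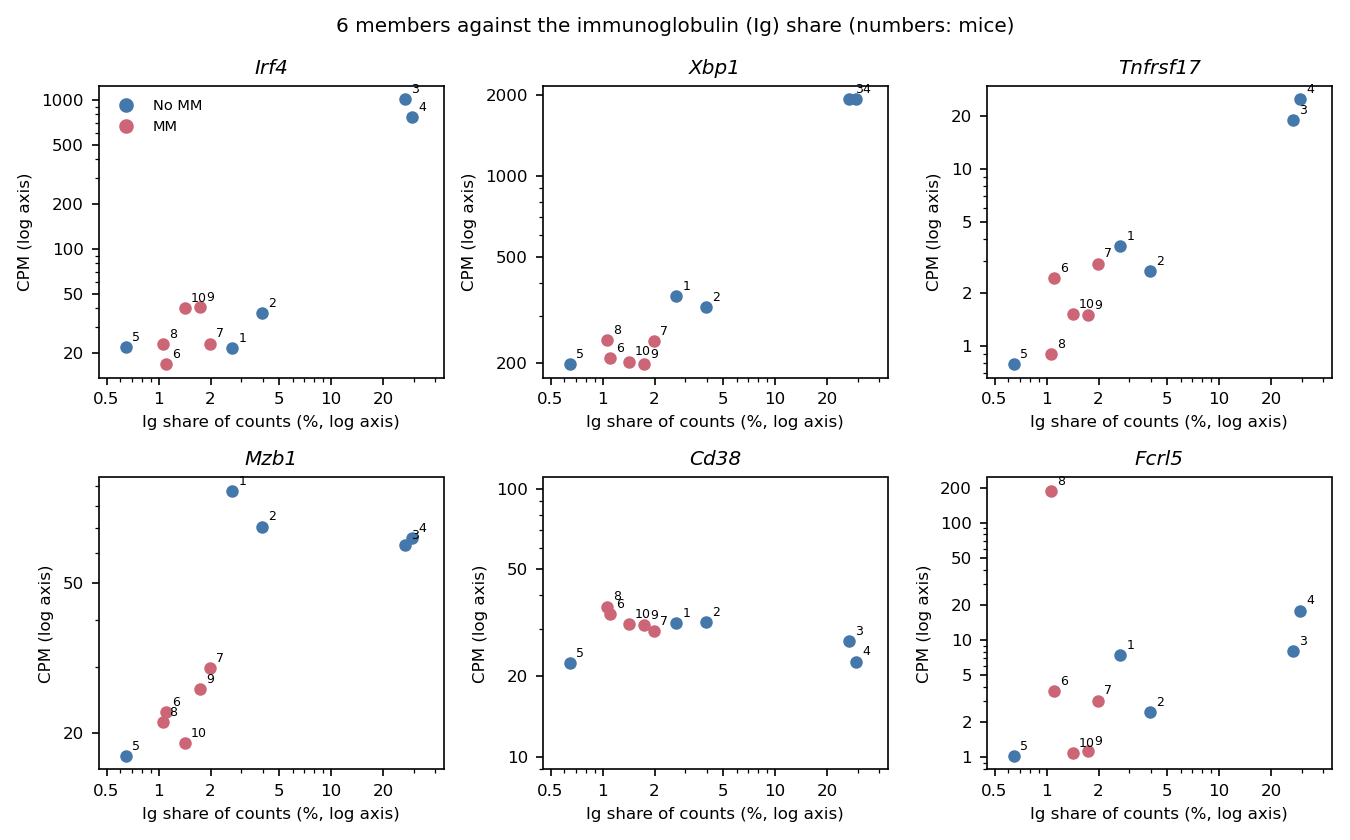
CPM against the immunoglobulin share of counts, both on log axes, for Irf4, Xbp1, Tnfrsf17, Mzb1, Cd38 and Fcrl5, with 1 point per library, numbered by mouse. Mice 3 and 4 lie apart at 26.8% and 29.3%, and Mzb1 rises from 17.4 CPM in mouse 5 to 87.6 CPM in mouse 1 without going higher in mice 3 and 4.

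Levels between members were compared as CPM per kilobase of gene length. The median over the 10 libraries was 113.9 for Xbp1, which was above Sdc1 (34.0) in 10 of 10 libraries. Sdc1 and Mzb1 (30.9) were not separated, with Sdc1 above in 5 of 10, nor were Tnfrsf13b (18.9) and Slamf7 (16.3), with Tnfrsf13b above in 5 of 10. Cd38 (10.4) was above Irf4 (6.41) in 8 of 10 libraries, and the exceptions were the libraries labelled No MM 3 and 4. Prdm1 (3.22) and Tnfrsf17 (3.10) were close, with Prdm1 above in 6 of 10, and Fcrl5 (1.88) came last. Over the 8 libraries other than those labelled No MM 3 and 4, the order of the medians was the same, from 105.9 for Xbp1 to 1.53 for Fcrl5, with Cd38 above Irf4 in 8 of 8 and Sdc1 above Mzb1 in 3 of 8.

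Other genes of the plasma cell programme, 19 tested, were high in the same libraries as the members. In the libraries labelled No MM 3 and 4, 16 of 19 were above all other 8 (24% of all genes tested). Pou2af1, a coactivator of immunoglobulin transcription, reached 1934 and 2339 CPM there, against 31.5 to 90.6 CPM elsewhere. Igj, the joining chain of secreted antibody, reached 5554 and 5741 CPM, against 221 to 875 CPM. Txndc5, a disulfide isomerase of the endoplasmic reticulum, was at 2292 and 1771 CPM, against 173 to 353 CPM. The exceptions were Cd27, below the other 8 in both, at 1.91 and 2.07 CPM against 3.85 to 7.0 CPM, and Itga4 and Il6ra, which lay within the range of the others. Between groups, 0 of 19 passed the adjusted test, 15 were lower in MM at an unadjusted p under 0.05 (10.3% of all) and 1 was higher (3.81%), with 2 lower and 0 higher without the libraries labelled No MM 3 and 4.

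Genes of B cells that plasma cells silence moved the opposite way. Of 14 tested, 10 were below the other 8 libraries in both libraries labelled No MM 3 and 4 (20.7% of all genes tested). Cd79a, a subunit of the B cell receptor, was at 2.97 and 2.00 CPM there, against 44.6 to 100.5 CPM elsewhere. Pax5, the factor that maintains B cell identity, was at 0.194 and 0.182 CPM, against 5.39 to 20.1 CPM. Cd74, the invariant chain of MHC class II, was an exception, above the others at 4623 and 3177 CPM against 589 to 1873 CPM, and Cd79b was the other gene above, at 166 and 213 CPM against 60.9 to 123 CPM. Between groups 0 of 14 passed. At an unadjusted p under 0.05, 2 were higher in MM (3.81% of all) and 0 were lower (10.3%), and the counts were 1 higher and 0 lower without the libraries labelled No MM 3 and 4.

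**Figure D4:**
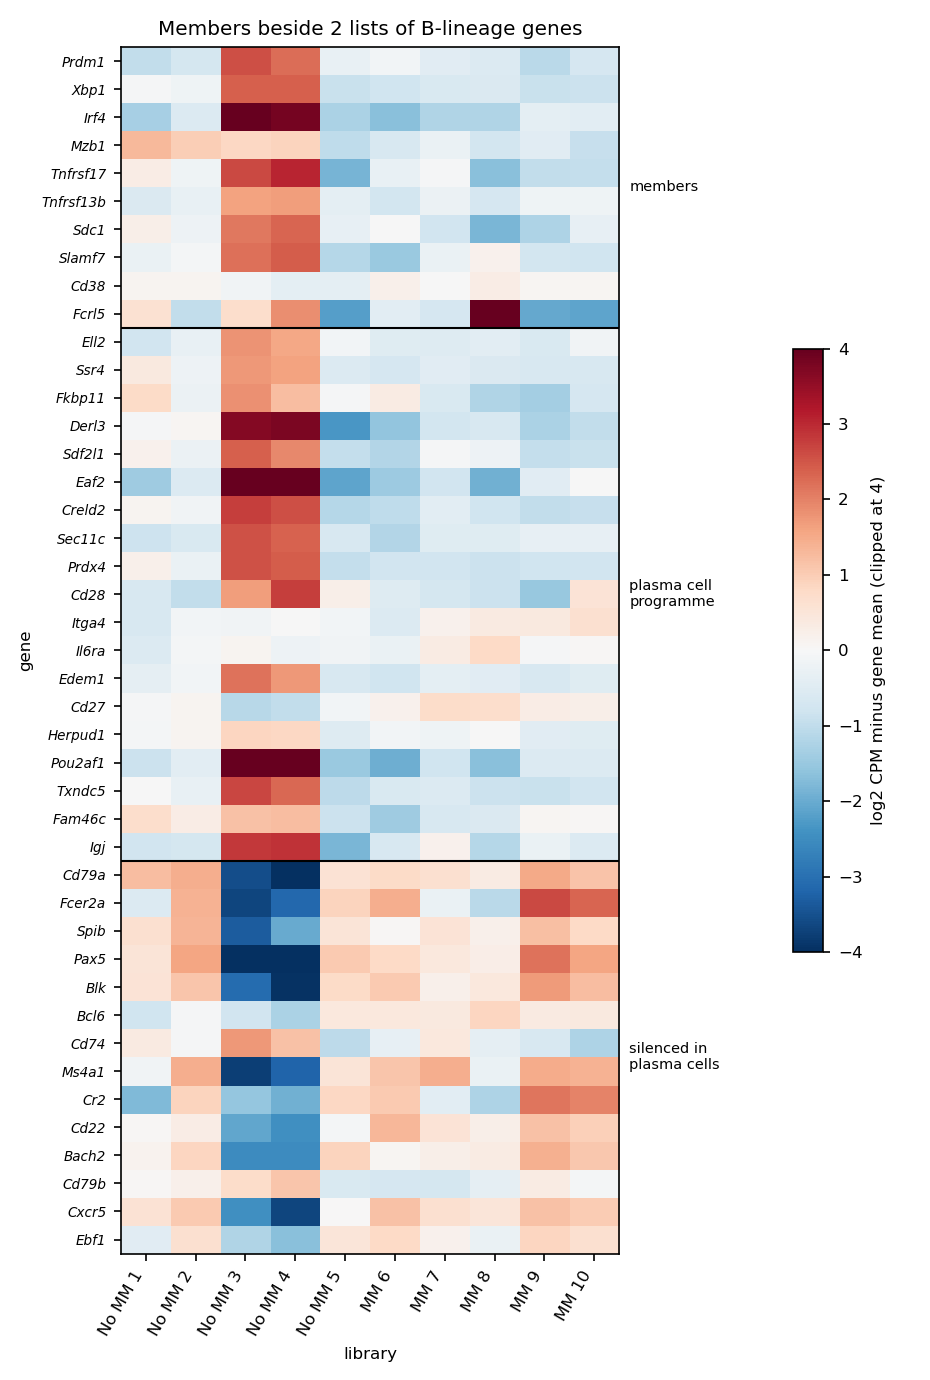
Log2 CPM minus the mean of each gene, in color, clipped at 4, for the 10 members, 19 further genes of the plasma cell programme and 14 B cell genes that plasma cells silence (rows), in each library (columns). In No MM 3 and No MM 4, 7 members and 16 of the 19 programme genes are above the other libraries, and 10 of the 14 silenced genes are below them.

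Further lists give the makeup of these libraries. Osteocyte markers were present in all 10, with Dmp1 between 111.7 and 884.5 CPM and Sost between 68.3 and 994.9 CPM. Phex was at 20.9 and 19.6 CPM in the libraries labelled No MM 3 and 4, against 85.0 to 288 CPM, and 4 of 7 osteocyte, 6 of 7 osteoclast, 8 of 10 neutrophil, 4 of 8 macrophage, 6 of 11 T and NK cell and 5 of 8 B cell precursor genes were below the other 8 in both (20.7% of all genes tested). The summed neutrophil list was at 7201 and 8385 CPM there, against 10256 to 33092 CPM. Of 8 myeloma oncogenes and cyclins, 6 were below and 1 was above, the cyclin Ccnd2, at 1407 and 1019 CPM against 85.9 to 291 CPM. Among plasmacytoid dendritic cell genes, the counts were near the shares over all genes (24% above and 20.7% below): 3 of 8 were above (Ly6d at 1313 and 1095 CPM against 30.7 to 101 CPM, Tcf4 and Bst2) and 2 were below (Siglech at 2.65 and 3.45 CPM against 11.5 to 31.9 CPM, and Irf8). Between groups, 0 genes of these 8 lists passed the adjusted test, with or without the libraries labelled No MM 3 and 4. The part of cell makeup in the members' levels was not tested.

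For each member, the genes with the most similar profile were found by the root mean square difference of centred log2 CPM over the 10 libraries. Nearest to Xbp1 were Prdx4 (0.144), Txndc5 (0.158) and Edem2 (0.173), all of the endoplasmic reticulum. Irf4 was nearest to Pou2af1 (0.313), Gyltl1b (0.359) and Liph (0.369). The nearest genes of Prdm1 were Zmat3 (0.230), Ccdc120 (0.252) and Pawr (0.282), those of Tnfrsf17 were Atoh8 (0.297), Ccdc136 (0.313) and Mfge8 (0.382), and those of Tnfrsf13b were Rragb (0.128), Igf1r (0.149) and Nipsnap1 (0.164). Sdc1 was nearest to Spats2 (0.273), Zfp93 (0.294) and AI854703 (0.30), and Slamf7 to Pkp3 (0.267), Sdf2l1 (0.293) and Spn (0.298). Among the members themselves, Xbp1 and Slamf7 were each other's nearest, at 0.364, and Xbp1 was also the nearest member to Prdm1, Irf4, Tnfrsf17, Tnfrsf13b and Sdc1.

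Mzb1, Cd38 and Fcrl5 had other neighbors. Mzb1 was nearest to Gm10076 (0.379), the ribosomal protein gene Rps14 (0.386) and Atp5g1 (0.400), a subunit of ATP synthase. Rps14 was at 1501 and 1207 CPM in the libraries labelled No MM 3 and 4, within the range of 569 to 1749 CPM of the other 8. Cd38 was nearest to Dnaja2 (0.142), Exoc8 (0.142) and Pomc (0.15), a set that mainly shares a flat profile. Fcrl5 was nearest to Cd300e (0.713), Fam89a (0.764) and Fcgr4 (0.958), so by this measure its neighbors were less close than those of any other member. The measure is not scaled to a gene's own spread, and Fcrl5 had the largest spread of the members (SD 2.17 on the log2 scale). Over the 8 libraries other than those labelled No MM 3 and 4, 0 of the 3 nearest genes stayed the same for each member but Fcrl5. For Fcrl5, 2 of 3 did (Fam89a at 0.735 and Cd300e at 0.765). No other pair of libraries was left out for comparison, so the part of the libraries labelled No MM 3 and 4 in these likenesses was not tested.

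The MM 8 library carried the peaks of Fcrl5 and of its neighbors together. The neighbors were picked by their likeness to the Fcrl5 profile, so a shared peak in MM 8 follows from that choice. Cd300e, an activating receptor of monocytes, was at 305 CPM in MM 8 and between 1.10 and 6.36 CPM in the 7 others outside the libraries labelled No MM 3 and 4, where it was at 11.9 and 34.7 CPM. Fcgr4, an Fc receptor of monocytes and macrophages, was at 951 CPM in MM 8, at 63.7 and 106.6 CPM in the libraries labelled No MM 3 and 4, and between 12.4 and 57.5 CPM in the 7 others. The complement genes C1qa, C1qb and C1qc, made by macrophages, were at 606, 839 and 614 CPM in MM 8, each the highest of the 10 libraries, as was Emr1 at 153 CPM. The other 4 of the 8 macrophage genes did not peak there: Csf1r was at 363 CPM (highest 558 CPM), Cd68 at 165 CPM (highest 288 CPM), Mrc1 at 65.0 CPM (highest 115 CPM), and Vcam1 at 156 CPM, the lowest of the 8 libraries other than those labelled No MM 3 and 4. The summed list was at 2960 CPM in MM 8 and between 821 and 2665 CPM in the other 9. Of the other members in MM 8, Slamf7 and Cd38 were at 23.9 and 36.3 CPM, each the highest of the 8 libraries other than those labelled No MM 3 and 4, whereas Sdc1 was the lowest of all 10 libraries at 35.7 CPM. Irf4 at 23.2 CPM lay within the range of the other MM libraries, Xbp1 at 243 CPM was the highest of MM, just above 242 CPM in MM 7, Tnfrsf17 at 0.898 CPM was the lowest of MM, and the immunoglobulin share was 1.06%. The part of monocyte and macrophage RNA in the Fcrl5 value was not tested.

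**Figure D5:**
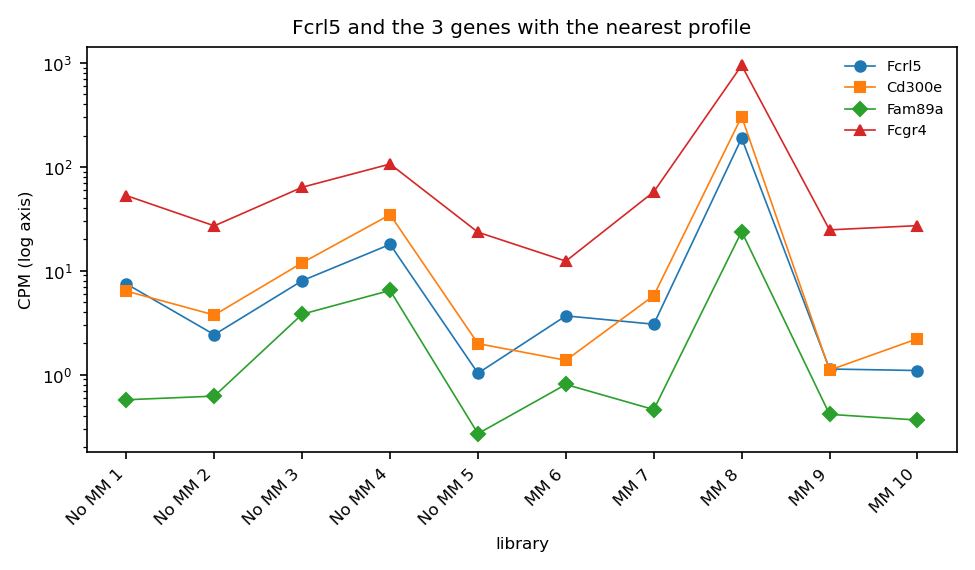
CPM on a log axis of Fcrl5 and of the 3 genes with the nearest profile, Cd300e, Fam89a and Fcgr4, in each library. All 4 peak in MM 8, Fcrl5 at 189 and Fcgr4 at 951, with smaller values in No MM 3 and No MM 4. The 3 genes were picked by this likeness, so the shared peak follows from the choice.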

How the data were processed

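Whole-number read counts per gene, without normalization, were deposited by the authors for 10 libraries and were the only values tested. The authors also deposited a normalized signal (each count over a size factor of its library), FPKM, log2 fold changes and p-values. The signal and FPKM were not needed beside the counts, and the fold changes and p-values, which hold the authors' own comparison, were not used. The labels name FastQC 0.11.5 and STAR. The genome build, the counting program and its strand setting are not given in the sources used here. Gene positions of 6 members equalled those of GENCODE M21 (GRCm38), which was used to find overlapping genes.

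Counts (31099174 to 39466332 per library) were analyzed in R 4.3.3 with edgeR 4.0.16. Genes passing filterByExpr were scaled by TMM and tested for MM against No MM by the quasi-likelihood test, without covariates, with Benjamini-Hochberg adjustment over all genes tested and a threshold of 0.05. Log2 CPM used a prior count of 2. The fit was also run on simulated counts with 200 genes changed. Those counts held no pair of libraries set apart, so that run does not bear on the effect of the libraries labelled No MM 3 and 4. Exact permutation tests, two-sided, were used for single values and, beside edgeR, for the log2 CPM of each member, with SciPy 1.17.1. Library pairs with identical counts numbered 0. Separate mice are the replicates. Alternatives were DESeq2 1.42.0, RLE size factors, no filter, immunoglobulin genes left out, constant-region immunoglobulin genes alone, percent in place of log2, counts outside immunoglobulin genes, each mouse left out, and the libraries labelled No MM 3 and 4 left out. The counts of further list genes, DESeq2, the order of levels, the overlap of groups and the nearest profiles without those libraries were added after seeing the data.

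The members, the 11 gene lists and the tests were chosen with earlier results of these data known. Named are all members, up to 4 genes of highest mean CPM per list, and the 3 genes nearest to each member. Further list genes (Pax5, Phex, C1qa, C1qb, C1qc, Emr1, Cd68, Mrc1, Cd27, Itga4, Il6ra, Siglech and others named as exceptions) and variable and constant-region immunoglobulin genes were chosen after their values were seen. From the list of silenced B cell genes, 1 gene is not reported here.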

Additional observations from a re-analysis of the deposited data

Results flagged for a closer look

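Among the 22 sets of 5 libraries examined (each member, and also the immunoglobulin share, within each group), 1 held a library far from the rest. This was Fcrl5 in MM 8, at 189 CPM against 1.09 to 3.67 CPM in the other 4 MM libraries, a gap of 0.986 of the whole range against a critical value of 0.71. Chance alone flags about 1 in 20 such sets. The groups in which the libraries labelled No MM 3 and 4 lie are not picked out by this measure, since a pair of high libraries leaves no single gap.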

How the results depend on the processing

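The count of members past the adjusted threshold was 0 in edgeR under every alternative run (other size factors, no filter, immunoglobulin genes left out, the libraries labelled No MM 3 and 4 left out, and 0 to 0 over each mouse left out), and 3 with DESeq2 on all libraries, where Irf4 was at -3.64, Xbp1 at -2.07 and Mzb1 at -1.33 on the log2 scale. Without the libraries labelled No MM 3 and 4, the sign turned for Prdm1 (0.0745), Irf4 (0.0791) and Tnfrsf13b (0.0263) in edgeR, and in DESeq2, which then called 0 members (an alternative added after seeing the data), for the same genes (0.0827, 0.0917 and 0.0387). Without MM 8 it turned for Fcrl5 (-1.72), whose range over the mice left out in turn reached 3.07. In DESeq2, Fcrl5 had no adjusted p and so could not be called. The difference in immunoglobulin share ran from -2.75 to -1.38 on the log2 scale over the mice left out in turn. The count of members correlated with that share within 8 libraries ran from 0 to 2 over the mice left out, and Tnfrsf17 joined Mzb1 without MM 6 (r = 0.882, exact permutation adjusted p = 0.0437). No count over all tested genes was made for this correlation. Correlations that changed sign, none of which passed, were Tnfrsf13b (-0.0181 with counts outside immunoglobulin genes), Cd38 (-0.56 without No MM 5, range to 0.605 without MM 8) and Fcrl5 (0.49 without MM 8, range to -0.365 without No MM 5). The causes were not tested, though fewer libraries leave fewer pairings. No paired analysis was possible because mouse numbers 1 to 5 and 6 to 10 do not meet. Depth limits Tnfrsf17 and Fcrl5 most, as the members with the fewest counts.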
